A study of Mus musculus with 6 samples.

Results

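The Serpin family was followed in fetal mouse gonads with and without Sox9. Its members here are the 47 genes whose symbol is Serpin, a clade letter from a to i, a number and any further letter, each read by 1 probe set annotated to that gene alone, out of 19937 genes measured. Each of 3 wild-type arrays holds RNA of 6 pooled gonads, and each of 3 mutant arrays (Sox9flox/flox; Sf1:creTr/+) holds RNA of 12. All were dissected at E13.5 without mesonephros, from mice of mixed C57BL6/J and 129 background, and 300 ng of total RNA was labelled per array. The mutants carry floxed Sox9 alleles and a Cre recombinase driven by Sf1 (Nr5a1) regulatory sequence, which is active in the somatic cells of the early gonad. No group carried the Cre or the floxed alleles alone, so their effects and that of pool size cannot be told apart from the loss of Sox9. Arrays keep the numbers of their labels, so that wild type has 1, 2 and 5 and the mutant has 3, 4 and 6. The labels do not say whether pools came from separate litters. The p-values weigh each difference against the spread among arrays of a group, and that spread may be technical.

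Serpins are a superfamily of proteins built on one fold. Most inhibit serine or cysteine proteases by offering an exposed reactive loop, which the protease cuts and by which it is then trapped in an inactive complex. Clade a holds blood plasma antiproteases made mainly in the liver and carriers of steroid and thyroid hormones, clade b holds intracellular inhibitors that shield cells from stray proteases, and the remaining clades include antithrombin, antiplasmin, C1 inhibitor, the collagen chaperone HSP47 and neuroserpin. In the gonad, proteases and their inhibitors take part in remodelling of matrix around cords and follicles.

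The targeted gene, Sox9, lay between 8.81 and 9.20 log2 in wild type and between 7.52 and 7.78 in the mutant (difference -1.31 ± 0.14 log2, SE; limma adjusted p = 0.00124), though the labels do not give the floxed part. Of 9 Sertoli cell markers 7 were lower and of 4 measured Leydig cell markers 4 were lower, whereas of 7 pregranulosa cell markers 7 were higher (median difference 1.90 log2) and of 5 germ cell markers 2 were higher. The mean level of the Sertoli list was 10.22 to 10.28 log2 on wild-type arrays and 7.21, 8.72 and 7.31 on mutants 3, 4 and 6, so mutant 4 lay nearest to wild type. A pair of arrays stood apart in other ways: wild type 5 carried high levels of liver genes, and mutant 3 read Xist at 7.29 log2 against 4.97 to 5.48 on the other arrays. Of the Y-linked genes checked, Eif2s3y lay between 9.56 and 9.77 on all 6 arrays, and the others are not given here.

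Few serpins were called different between mutant and wild-type gonads. Of the 47 members 3 were lower in the mutant, Serpina5, Serpinb1a and Serpinh1, and 0 were higher. The share lower, 6.38%, lies near that of all genes, of which 4.3% were lower and 2.64% higher (limma, adjusted p under 0.05). At an unadjusted p under 0.05 in the same limma fit 5 members were lower and 4 higher, 9 of 47, where 21.7% of all genes had such a p. The median difference of the members was 0.06 log2 and that of all genes 0.004, with 18 members below 0 and 29 above. Values of the groups did not overlap for 4 members that were lower in the mutant (8.51%, against 16.6% of all genes) and for 6 that were higher (12.8%, against 12.1%). Without wild type 5 the number called lower was 1, with 2.48% of all genes lower, and 0 were higher, with 1.42% of all genes. Without mutant 3 the number lower was also 1, and the share of all genes is not given there. In bulk gonads fewer cells of a type and less RNA per cell cannot be told apart.

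**Figure D1:**
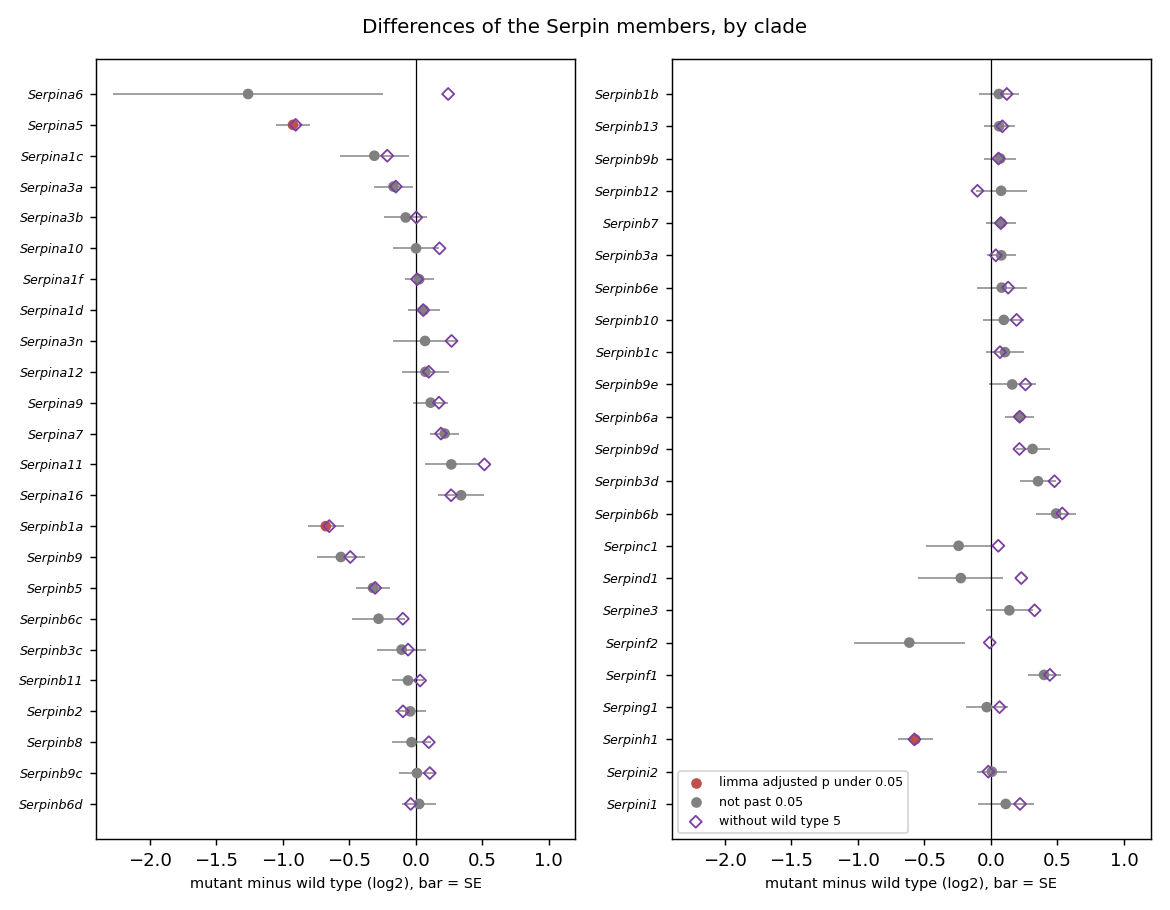
Difference between mutant and wild type (log2) of each of the 47 Serpin members, ordered by clade and then by difference, with bars of 1 moderated SE; red points passed limma's adjusted p of 0.05, grey points did not, and open diamonds give the difference without wild type 5. Red points mark Serpina5, Serpinb1a and Serpinh1, all to the left of 0, while the widest bar and the largest shift of a diamond belong to Serpina6.

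Many members gave little signal. Background was marked at 6.67 log2, the 95th percentile among mean signals of 1204 probe sets for olfactory and vomeronasal receptors, genes mostly silent in the gonad. Both group means of 34 of the 47 members lay below this mark, as did those of 6545 of all 19937 genes. A lack of calls among such dim members does not show a lack of difference. Of the 13 other members 2 were lower (15.4%) and 0 higher. The share over all genes with such signal was not counted, so the 15.4% has no like background and shows no excess. On every array 8 members lay above the mark: the clade b inhibitors Serpinb1a, Serpinb6a and Serpinb6b, and Serpinf1, Serpinf2, Serping1, Serpinh1 and Serpini1. RMA compresses differences near background, so folds of the dim members can be understated where a transcript is present, and a signal below the mark does not show that it is. Signals of different probe sets have no common scale, and levels are compared only between arrays for the same member.

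Serpina5, the protein C inhibitor, blocks several proteases of clotting and of reproductive fluids. Its signal in wild type was 6.20 (array 1), 6.05 (array 2) and 6.19 log2 (array 5), against 5.22, 5.41 and 5.05 on mutants 3, 4 and 6. The 3 mutant values lie below the 3 wild-type values by more than the spread within either group, although all 6 are under the background mark. The fall of Serpina5 was 1.90-fold, with a log2 difference of -0.92 ± 0.13 (SE; limma adjusted p = 0.00365). The call held when any 1 array was left out (limma adjusted p up to 0.0266) and ended only when wild type 5 and mutant 3 were both removed (-0.90 log2, limma adjusted p = 0.0550) among the alternatives in which this probe set was tested; a filter at the background mark removes it.

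Serpinb1a, an inhibitor of neutrophil elastase and related proteases that works inside cells, stood well above background. Its values were 7.96, 7.82 and 7.97 log2 on wild type 1, 2 and 5 and 7.07, 7.49 and 7.17 on mutants 3, 4 and 6, without overlap, and mutant 4 was again the mutant array nearest to wild type. The fall of Serpinb1a was 1.60-fold, with a log2 difference of -0.68 ± 0.14 (SE; limma adjusted p = 0.0212). Leaving out wild type 1, 2 or 5 or mutant 3 ended the call (limma adjusted p = 0.0958, 0.0523, 0.0701 and 0.0819), with differences between -0.72 and -0.59 log2.

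Serpinh1 encodes HSP47, a serpin that inhibits no protease and instead helps procollagen fold in the endoplasmic reticulum. It measured 9.92, 9.91 and 9.89 log2 on wild type 1, 2 and 5, with an SD of 0.012, and 9.48, 9.43 and 9.09 on mutants 3, 4 and 6. All mutant arrays lay below all wild-type arrays, and mutant 6 was lowest. The fall of Serpinh1 was 1.48-fold, with a log2 difference of -0.57 ± 0.13 (SE; limma adjusted p = 0.0355), and its call ended without any 1 of the 6 arrays (limma adjusted p up to 0.130) and after a further quantile normalization (limma adjusted p = 0.0683). The fibrillar collagen chains, clients of HSP47, were also lower: Col1a2 fell by 0.81 ± 0.13 and Col3a1 fell by 0.56 ± 0.13 log2 (SE; limma adjusted p = 0.0067 and 0.0332), while Col1a1, at -0.47 ± 0.16 log2, did not pass (limma adjusted p = 0.149), though it did with numbers 5 and 6 as a batch term. The Col3a1 call, like that of Serpinh1, ended without any 1 array (limma adjusted p up to 0.132).

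The 250 bases before the annotated start are shown for Serpina5 and Serpinh1, as members that fell and have an entry in the RefSeq promoter table of GRCm38.p6, and for Serpinf2, which stood out on wild type 5. Among the members 41 have an entry. Positions are chr12:104100863-104101112 on the plus strand for Serpina5, chr7:99353240-99353489 on the minus strand for Serpinh1 and chr11:75439502-75439751 on the minus strand for Serpinf2. Sequences run 5′ to 3′ on the gene's strand, and capitals mark matches on either strand to 6 motifs. A first and a second SOX motif were searched as AACAAT and, separately and in addition, as ACAAAG. The GATA factor motif was searched as AGATAA, the HNF1 motif, part of its site, as GTTAAT, the site of NR5A1 as CAAGGTCA and the TATA box as TATAAA.
Serpina5: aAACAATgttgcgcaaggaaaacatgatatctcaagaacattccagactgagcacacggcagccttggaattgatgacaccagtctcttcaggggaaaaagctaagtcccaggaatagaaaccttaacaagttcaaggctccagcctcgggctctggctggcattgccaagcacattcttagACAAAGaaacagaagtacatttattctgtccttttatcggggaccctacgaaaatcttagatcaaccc
Serpinh1: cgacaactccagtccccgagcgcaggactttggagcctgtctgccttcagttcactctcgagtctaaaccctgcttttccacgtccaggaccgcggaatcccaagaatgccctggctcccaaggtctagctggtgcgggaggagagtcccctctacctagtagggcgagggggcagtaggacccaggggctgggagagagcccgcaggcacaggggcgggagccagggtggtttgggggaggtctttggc
Serpinf2: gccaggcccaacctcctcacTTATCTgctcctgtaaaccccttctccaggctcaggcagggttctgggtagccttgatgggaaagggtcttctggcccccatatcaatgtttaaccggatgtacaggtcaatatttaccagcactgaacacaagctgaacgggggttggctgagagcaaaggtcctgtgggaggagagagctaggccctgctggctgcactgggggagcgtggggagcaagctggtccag
In Serpina5 the first SOX motif begins 249 bases before the start and the second 68 bases before it. The Serpinf2 window holds the GATA motif on the other strand from 230 bases before the start, and the Serpinh1 window holds none of the 6 motifs. Among all 32851 windows of the same length 9.42% hold the first SOX motif, 16.5% the second, 9.99% the GATA motif, 6.43% the HNF1 motif, 1.33% the NR5A1 site and 12.4% the TATA box. Among the 41 members these were found, in the same order, in 5, 12, 9, 6, 3 and 11. The printed matches do not overlap each other. A match describes the letters and shows no binding. The Serpinh1 window is the richest of the 3 in G and C, with 63.6% against 44.8% in Serpina5 and 57.2% in Serpinf2.

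**Figure D2:**
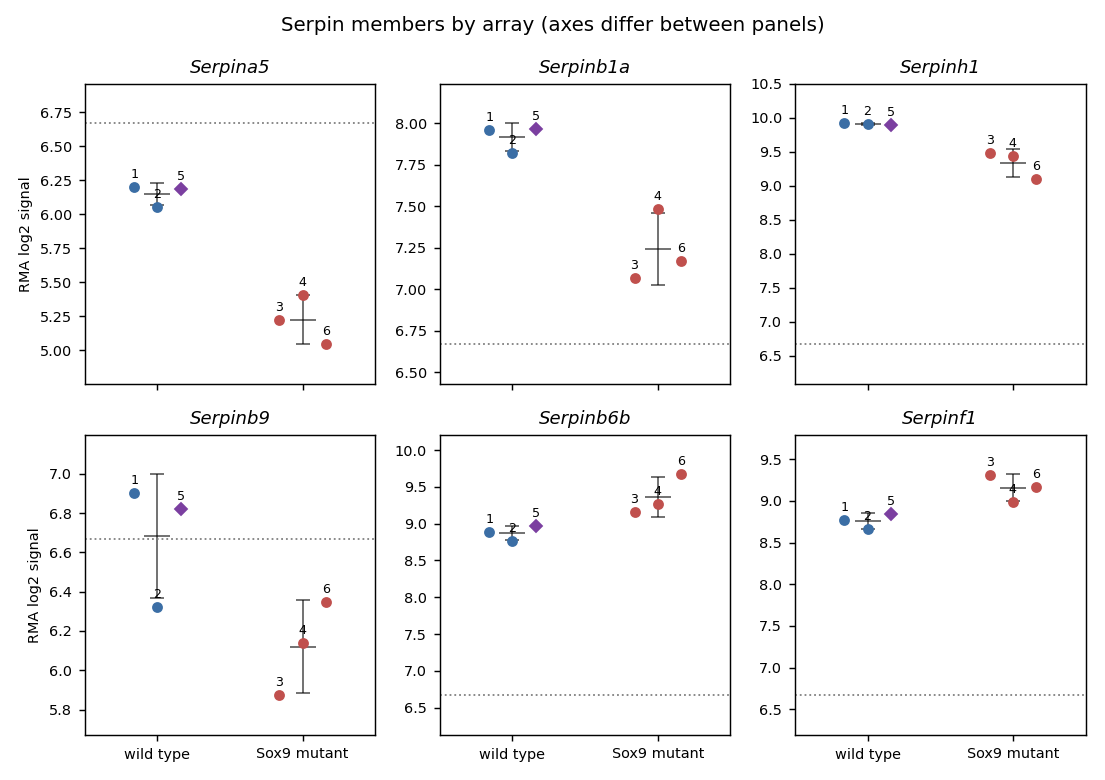
RMA log2 signal of 6 Serpin members on each array, with array numbers beside the points, wild type in blue (array 5 as a purple diamond), mutant in red, group mean and SD in black and the background mark of 6.67 log2 dotted; each panel has its own axis. Mutant points lie below wild type for Serpina5, Serpinb1a and Serpinh1 and above for Serpinb6b and Serpinf1, and those of Serpinb9 overlap between mutant 6 and wild type 2.

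Among the other intracellular inhibitors of clade b no call was made. Serpinb6b, related to the inhibitors of cathepsin G and trypsin-like proteases, measured 8.89, 8.77 and 8.97 log2 on wild type 1, 2 and 5 and 9.16, 9.27 and 9.67 on mutants 3, 4 and 6. Every mutant array was above every wild-type array, and the difference of 0.49 ± 0.15 log2 did not pass (SE; limma adjusted p = 0.102). With numbers 5 and 6 as a batch term it did (limma adjusted p = 0.0314), although the labels name no such batch. Its paralog Serpinb6a stayed closer, with 11.51, 11.39 and 11.45 log2 in wild type and 11.70, 11.59 and 11.70 in the mutant (difference 0.22 ± 0.11, SE; limma adjusted p = 0.320). Those groups do not overlap, with mutant 4 and wild type 1 closest to each other. Serpinb9, which guards cells against granzyme B, read 6.90, 6.32 and 6.82 log2 in wild type and 5.87, 6.14 and 6.35 in the mutant. Wild type 2 and mutant 6 overlapped there, and the difference was -0.56 ± 0.18 log2 (SE; limma adjusted p = 0.122).

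The clade b genes of mouse lie in a pair of clusters. Among the members, 13 lie on chromosome 13 and 12 on chromosome 1, where Serpinc1 is the single one outside clade b. Neighbouring members on chromosome 13 differed in sign: Serpinb1a (-0.68), Serpinb1c (0.11), Serpinb6b (0.49), Serpinb9 (-0.56) and Serpinb9b (0.07 log2 difference) follow one another in that order. Of these only Serpinb1a passed, and the differences of Serpinb1c and Serpinb9b were smaller than their SE (0.14 and 0.12 log2), so their signs are not settled. Close paralogs of the Serpinb1, Serpinb3, Serpinb6 and Serpinb9 groups can share probe sequence, so values of single paralogs are uncertain. The chromosome 1 members of clade b, among them Serpinb5 (maspin) and Serpinb2 (an inhibitor of plasminogen activators), had both group means below the background mark. Of these Serpinb5 was lower in the mutant without overlap (4.72, 5.01 and 4.92 against 4.60, 4.69 and 4.40 log2; limma adjusted p = 0.210) and Serpinb3d was higher without overlap (difference 0.35 log2, limma adjusted p = 0.193). Of all 24 clade b members 1 was lower, 0 were higher and 23 did not pass, with differences from -0.68 to 0.49 log2. Both group means of 20 of the 24 lay below the mark.

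In clade a, 1 of 14 members was lower (Serpina5), 0 were higher, and both group means of 12 lay below the mark. Serpina3n, an antichymotrypsin-like protein of the acute phase, spread as widely within wild type as between groups, at 6.15, 6.93 and 7.14 log2 against 7.04, 6.57 and 6.82 in the mutant (difference 0.07 ± 0.24, SE; limma adjusted p = 0.919). Its difference was -0.22 without wild type 1. Serpina7, which carries thyroid hormone, was higher on all mutant arrays by a small amount (4.72, 4.58 and 4.57 against 4.92, 4.81 and 4.80 log2; limma adjusted p = 0.328) at a signal far below the mark. In the chromosome 12 cluster, the members on either side of Serpina5 are Serpina12 (vaspin) and Serpina3a, with differences of 0.07 and -0.17 log2 (limma adjusted p = 0.878 and 0.615). The 3 members of the Serpina1 group and the 3 of the Serpina3 group differed by -0.31 to 0.06 and by -0.17 to 0.07 log2.

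Wild type 5 carried high signals of several plasma serpins, and its values are given apart. Serpina6, the corticosteroid-binding globulin, read 5.32 and 5.42 log2 on wild type 1 and 2 and 9.88 on wild type 5, against 5.99, 5.10 and 5.76 on mutants 3, 4 and 6. Serpinf2, which encodes the plasmin inhibitor alpha-2-antiplasmin, read 7.34 and 7.17 on wild type 1 and 2 and 9.07 on wild type 5, against 7.14, 7.22 and 7.39 in the mutant. Serpind1, heparin cofactor II, a thrombin inhibitor, read 6.43 and 6.35 on wild type 1 and 2 and 7.76 on wild type 5, against 6.67, 6.69 and 6.51 in the mutant. In each case array 5 alone was high, and the other wild-type arrays lay in or near the range of the mutant.

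With array 5 included, the mutant minus wild-type differences of these 3 genes were -1.26 ± 1.01, -0.61 ± 0.42 and -0.23 ± 0.32 log2 for Serpina6, Serpinf2 and Serpind1 (SE; limma adjusted p = 0.572, 0.487 and 0.774). Without it they were 0.24 ± 0.24, -0.01 ± 0.14 and 0.23 ± 0.13 log2 (limma adjusted p = 0.671, 0.986 and 0.416), so Serpina6 and Serpind1 changed sign. These were the 3 members that exceeded the higher of wild type 1 and 2 by at least 1 log2, 6.38% of the members, where 0.155% of all genes did (31 genes). The same rule applied to wild type 1 or wild type 2 against the other wild-type arrays found 0 members, and 1 and 3 of all genes. High hepatic serpins on wild type 5 were known before this rule was set, so these shares describe the arrays and test nothing. Antithrombin, Serpinc1, read 6.00 and 6.28 on wild type 1 and 2, 7.04 on wild type 5 and 6.26, 6.39 and 5.94 log2 in the mutant, a rise on array 5 short of that rule. Over the 44 remaining members, array 5 differed from the mean of wild type 1 and 2 by -0.53 to 0.90 log2, with a median of 0.13.

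Liver genes moved with these serpins on array 5. Of 20 hepatocyte markers 13 were raised there by the same rule and 18 had array 5 as the highest of the 6. Afp and Alb, the main plasma proteins of fetal and later liver, exceeded the mean of wild type 1 and 2 by 5.55 and 5.42 log2. The mean level of the hepatocyte list was 6.45, 6.56 and 8.23 log2 on wild type 1, 2 and 5 and 6.41 to 6.54 on the mutant arrays. Of 6 measured erythroid markers 0 were raised on array 5 by that rule, with a list mean of 8.51 log2 there against 8.04 and 8.14 on wild type 1 and 2. The part of liver tissue in the serpin signals of array 5 was not tested. For the members that fell, array 5 lay within 0.08 log2 of the mean of wild type 1 and 2 (0.06 for Serpina5, 0.08 for Serpinb1a and -0.02 for Serpinh1).

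**Figure D3:**
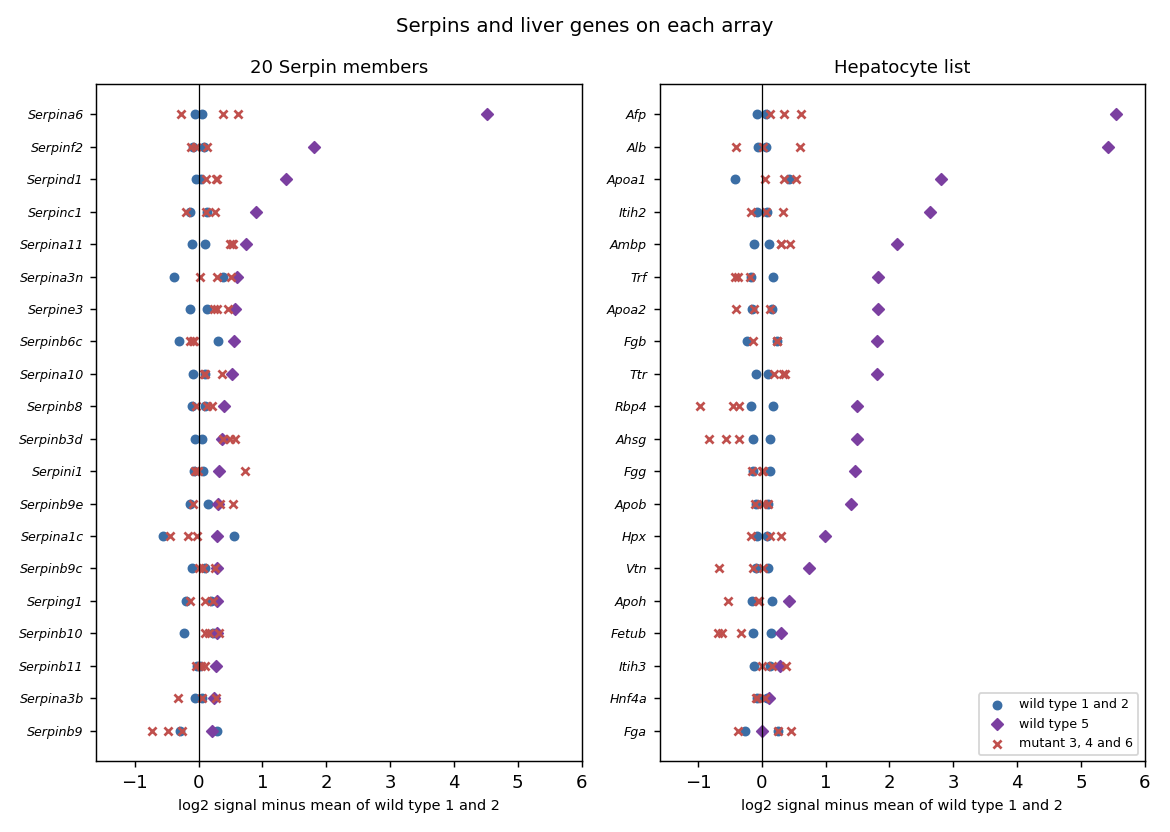
Signal on each array minus the mean of wild type 1 and 2 (log2) for the 20 Serpin members with the largest such value on wild type 5 (left) and for the 20 genes of the hepatocyte list (right); circles are wild type 1 and 2, diamonds wild type 5 and crosses the mutant arrays. Wild type 5 lies 4.51, 1.82 and 1.36 log2 to the right for Serpina6, Serpinf2 and Serpind1, and 5.55 and 5.42 for Afp and Alb.

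The other secreted serpins with signal above the mark did not pass. Serpinf1 encodes PEDF, a secreted factor that restrains vessel growth and inhibits no protease. It measured 8.77, 8.66 and 8.84 log2 on wild type 1, 2 and 5 and 9.31, 8.99 and 9.17 on mutants 3, 4 and 6, higher on every mutant array (0.40 ± 0.12 log2, SE; limma adjusted p = 0.109). Serping1, the C1 inhibitor of the complement and contact systems, read 9.59, 9.20 and 9.69 against 9.26, 9.50 and 9.63 log2. Those groups overlap throughout (difference -0.03 ± 0.16, SE; limma adjusted p = 0.947), and the sign turned with quantile normalization or array weights. Serpini1, neuroserpin, an inhibitor of tissue plasminogen activator, read 7.40, 7.26 and 7.66 log2 in wild type and 7.28, 7.32 and 8.06 in the mutant, where mutant 6 was the highest array (difference 0.11 ± 0.21, SE; limma adjusted p = 0.840). Serpine3 read 6.61, 6.88 and 7.31 log2 against 7.20, 7.03 and 6.99 (difference 0.14 ± 0.17, SE; limma adjusted p = 0.745), with wild type 5 highest. Serpini2, at 4.26 to 4.47 log2 on the 6 arrays, lay below the mark.

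Proteases that serpins inhibit, and the receptors, cofactors and clients of serpins, were read from a fixed list of 62 genes, of which 56 were measured. Among 36 measured proteases 2 were lower in the mutant, 0 higher and 34 did not pass (5.56% lower, against 4.3% of all genes; limma, 3 lower and 0 higher at an unadjusted p under 0.05). The cysteine protease cathepsin L, Ctsl, read 11.10, 11.28 and 11.19 log2 on wild type 1, 2 and 5 and 10.02, 10.33 and 9.89 on mutants 3, 4 and 6. Ctsl fell 2.16-fold (-1.11 ± 0.14 log2, SE; limma adjusted p = 0.00221), with mutant 4 nearest to wild type. Masp1, a protease of the lectin pathway of complement that C1 inhibitor restrains, read 7.74, 7.87 and 8.13 log2 against 6.77, 7.40 and 7.06, a fall of 1.79-fold (-0.84 ± 0.17 log2, SE; limma adjusted p = 0.0251). That call ended without wild type 1, 2 or 5 or mutant 3 (limma adjusted p = 0.0609, 0.0706, 0.0830 and 0.0846). The plasminogen activators did not pass, with differences of 0.20 ± 0.18 for Plat and 0.07 ± 0.12 log2 for Plau (SE; limma adjusted p = 0.623 and 0.802).

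Of 20 measured receptors, cofactors and clients 6 were lower, 0 higher and 14 did not pass, 30% lower where 4.3% of all genes were lower and 2.64% higher. The list was chosen with results of the whole series known. Both group means of 2 of the 20 lay below the background mark, against 6545 of 19937 genes, so all genes are not a like background. At an unadjusted p under 0.05 in the same limma fit 8 were lower and 2 higher, 10 of 20, where 21.7% of all genes had such a p. The median difference of the 20 was -0.27 log2. Thbd, thrombomodulin, the endothelial receptor through which thrombin activates protein C, read 9.73, 9.68 and 9.71 log2 on wild type 1, 2 and 5 and 7.91, 8.44 and 7.92 on mutants 3, 4 and 6. Thbd fell 3.06-fold (-1.61 ± 0.15 log2, SE; limma adjusted p = 0.000746). Of 7 endothelial markers 0 passed in limma, 3 were lower and 1 higher at an unadjusted p under 0.05, and 6 of the 7 differences lay below 0, with a median of -0.25 log2; the part of endothelial cell content in the Thbd value was not tested. Angiotensinogen, Agt, is itself a serpin by fold and the precursor of angiotensin peptides, but its symbol falls outside the member rule. It read 8.48, 8.47 and 8.75 log2 in wild type and 6.87, 7.49 and 6.95 in the mutant, a fall of 2.75-fold (-1.46 ± 0.18 log2, SE; limma adjusted p = 0.00195). Sdc4 and Gpc1, cell-surface heparan sulfate proteoglycans of the kind whose chains speed several serpins, fell by 1.15 ± 0.15 and 0.61 ± 0.13 log2 (SE; limma adjusted p = 0.00243 and 0.0239). The remaining 2 of the 6 were Col1a2 and Col3a1. Each of the 8 genes called lower over both lists, collagens included, was nearest to wild type on mutant 4. So was the mean of the Sertoli list, and the part of Sertoli cell content in these values was not tested. Calls of Thbd, Agt, Sdc4 and Ctsl held in all alternatives run, that of Col1a2 ended with wild type 5 and mutant 3 both left out (limma adjusted p = 0.0691), and that of Gpc1 ended without wild type 1, wild type 5, mutant 3 or mutant 6 (limma adjusted p = 0.110, 0.0771, 0.0838 and 0.0548). The count of 8 lower over both lists was 5 without wild type 1, wild type 5 or mutant 3. Without wild type 5 the share of all genes lower fell too, to 2.48%.

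**Figure D4:**
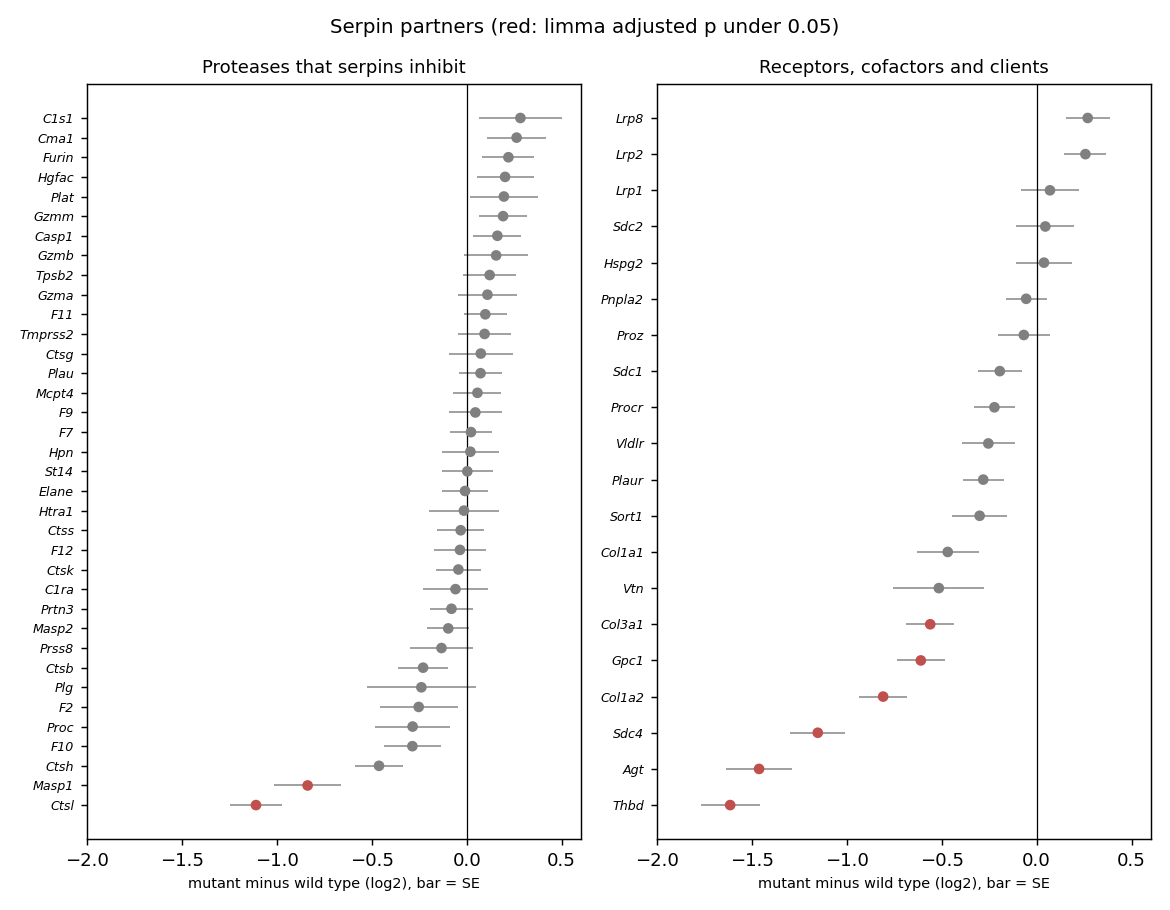
Difference between mutant and wild type (log2) with bars of 1 moderated SE for the 36 measured proteases that serpins inhibit (left) and 20 measured receptors, cofactors and clients (right); red points passed limma's adjusted p of 0.05. Red points lie only to the left of 0, at -1.61 for Thbd, -1.46 for Agt, -1.15 for Sdc4 and -1.11 for Ctsl.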

How the data were processed

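The authors' deposited values were used, log2 signals made with RMA, per the submitters' processing notes (background correction, quantile normalization and probe set summary); no source used here gives the version, settings or genome build. Array medians lay within 0.09 log2. Of 34760 rows, 6573 with identifiers below the lowest annotated one were taken as the control block and left out. The remaining 28187 probe sets were fitted with limma 3.58.1 in R 4.3.3 (lmFit, eBayes, 2-sided, Benjamini-Hochberg over all 28187, threshold 0.05), with no filter on dim probe sets. The fit was tested on simulated data. A gene was read by its brightest single-gene probe set, giving 19937 genes; each member had 1. Of 53 Serpin probe sets, 5 were annotated to several genes and 1 to a symbol outside the rule. Of 21640 single-gene probe sets 21553 matched RefSeq by Entrez identifier. Errors are SD (means) or moderated SE (differences), n = 3 arrays a group, a number that limits the precision. Genes named were those called, those raised on wild type 5, the 10 brightest, the 5 largest uncalled differences, and called partners; others were named after their values were seen. Members and lists were chosen with earlier results of these data known. Alternatives were other scalings, a dim filter, trend and robust, array weights, a batch term, arrays left out, a stricter threshold, probe set means and control rows kept. Figures used matplotlib 3.10.9.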

Additional observations from a re-analysis of the deposited data

How the results depend on the processing

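No paired analysis was possible because the groups share no replicate number. Of 47 members, the 3 called lower became 1 to 2 with 1 array left out, 1 with arrays 1 to 4 alone, at a threshold of 0.01 or with control rows kept, and 0 with wild type 5 and mutant 3 both left out, an alternative chosen after seeing the data. The 0 called higher became 1, Serpinb6b, with numbers 5 and 6 as a batch term. Over all genes the share called lower also fell without wild type 5, from 4.3% to 2.48%. The all-gene shares in the other settings, for the members and for the partners below, are not given. Partners called lower, 8, became 5 to 7 with 1 array left out, 5 with arrays 1 to 4 alone, at 0.01 or with control rows kept, and 4 with both arrays left out. They became 9 with the filter on dim probe sets, which adds Ctsh, and 10 with numbers 5 and 6 as a batch term, which adds Ctsh and Col1a1; higher calls stayed 0. Members without overlap, 4 lower and 6 higher, became 2 and 3 among the 11 members whose mean over all 6 arrays exceeds the background mark. With 1 array left out they became 4 to 6 and 7 to 11. Leaving out an array can only keep or raise such a count. The share over all genes was not counted in these settings, so the rise is not a result about the members. The 3 members raised on wild type 5 stayed 3 under quantile normalization, a common median and probe set means.

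Sign changes are given for the 14 members named by rule only, and other members changed sign too. None of the 3 called members did. With 1 array left out differences ran from -0.22 to 0.27 for Serpina3n, -2.04 to 0.24 for Serpina6, -0.47 to 0.23 for Serpind1, -0.023 to 0.33 for Serpine3, -0.18 to 0.072 for Serping1 and -0.14 to 0.25 log2 for Serpini1. With arrays 1 to 4 alone the sign turned for Serpina6 (0.17), Serpind1 (0.29) and Serpini1 (-0.035). With wild type 5 and mutant 3 both left out it turned for Serpina6 (0.058), Serpind1 (0.20), Serpinf2 (0.046) and Serping1 (0.17 log2). Serping1 was 0.029 with quantile normalization and 0.0024 log2 with array weights. The cause of these sign changes was not tested.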

Other observations

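Serpin probe sets annotated to several genes at once are not members and name no gene. The 2 that cover genes of the alpha-1-antitrypsin group read 5.38, 5.26 and 7.09 log2, and 6.70, 6.70 and 8.72 log2, on wild type 1, 2 and 5. Wild type 5 lay 1.77 and 2.02 log2 above the mean of wild type 1 and 2 on these probe sets. The probe sets annotated to Serpina1c alone and Serpina1d alone were 0.29 above and 0.01 below that mean, as differences of 0.29 and -0.01 log2. On the mutant arrays 3, 4 and 6 the shared probe sets read 5.32, 5.60 and 4.80 log2, and 7.19, 6.89 and 6.79 log2.

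The 3 shared probe sets of the Serpinb9 group differed between mutant and wild type by 0.45 ± 0.16, 0.21 ± 0.34 and 0.25 ± 0.13 log2 (SE; limma adjusted p = 0.156, 0.806 and 0.324). Wild type 5 lay 0.30, 1.16 and 0.005 log2 above the mean of wild type 1 and 2 on these probe sets. The middle one read 4.60, 5.28 and 6.10 log2 on wild type 1, 2 and 5 and 5.36, 5.98 and 5.27 on mutants 3, 4 and 6.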
